A study of Homo sapiens with 12 samples.

Results

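A group of 51 genes was expressed in WT K562 cells and close to undetected in HRG1-KO K562 cells, whether or not the cells had received sodium butyrate. They were chosen from 28278 genes by their level in CPM, which is the count of a gene divided by the total count of its library and multiplied by 1000000. A gene qualified when its mean was above 5 CPM in both WT groups and below 0.1 CPM in both KO groups. Of the 59 genes that met these limits, 8 were set aside by their symbols (ALDH1A2, B3GALT1-AS1, CAV2, KRT19, LINC00534, LINC01203, LINC01287 and TMOD2), which left the 51. The difference between WT and KO is thus how the genes were found, and it is described here without a test. With the limits exchanged, so that a gene is seen in KO cells only, 58 genes met them and 50 were left after the same symbols were set aside.

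K562 is a human erythroleukaemia line. HRG1, encoded by SLC48A1, is a transporter of heme, and sodium butyrate is an inhibitor of histone deacetylases that drives K562 cells towards the erythroid lineage. The data are 12 RNA-seq libraries in 4 groups of 3: WT untreated, WT with butyrate, HRG1-KO untreated and HRG1-KO with butyrate. Butyrate was given at 0.75 mM at 24 h after plating and again 48 h later, and cells were taken 6 h after the second dose. The series places the cells at day 8 of differentiation. How the knockout was made, how many KO clones there were and whether replicates were separate cultures are not given in the sources used here. An effect of HRG1 loss and a property of the KO clone therefore cannot be told apart, and p-values measure only the spread between these libraries.

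Which genes a cell transcribes is set by the factors that bind its promoters and enhancers and by the state of the chromatin there. A silent state can be kept through cell division by DNA methylation at a promoter and by repressive histone marks. Promoters rich in CpG dinucleotides usually belong to widely expressed genes, whereas promoters poor in CpG, often with a TATA box, usually belong to genes restricted to some tissues. These statements are background, and neither DNA methylation nor histone marks were measured in these libraries.

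Library totals ran from 19963594 to 30348538 counts. SLC48A1, the targeted gene, stood at 67.7 to 82.1 CPM in untreated WT and 62.8 to 70.4 CPM in treated WT, against 2.7 to 8.42 CPM in untreated KO and 6.05 to 10.7 CPM in treated KO. All 11 erythroid and K562 markers were above 1 CPM in each group, with sums of 6213 to 12379 CPM in untreated WT, 17785 to 34749 in treated WT, 4134 to 6456 in untreated KO and 5182 to 7383 in treated KO, and CDKN2A, CDKN2B and MTAP, which K562 cells lack, were at 0 in every library. Of 10 fibroblast markers, 1 was above 1 CPM in untreated WT, untreated KO and treated WT, and 2 were in treated KO. Their summed level was 2.7 to 5.43 CPM in untreated WT and 2.6 to 5.17 CPM in untreated KO, and 37.1 to 117.0 and 70.8 to 173.6 CPM in treated WT and KO, with LUM, FAP and POSTN at 0 in every library. That of 10 epithelial markers was 451.4 to 527.3 CPM in untreated WT and 326.6 to 412.8 CPM in untreated KO, with KRT5 and KRT14 at 0. That of 8 lymphoid markers was 14.9 to 23.7 and 3.72 to 5.92 CPM, with MS4A1 at 0, and that of 7 megakaryocyte markers 195.5 to 405.7 and 82.4 to 100.1 CPM, with PF4 at 0. In treated WT and KO the epithelial sums were 464.4 to 860.9 and 381.9 to 620.9 CPM, the lymphoid sums 10.1 to 28.1 and 9.6 to 14.2 CPM, and the megakaryocyte sums 196.6 to 428.0 and 145.4 to 223.5 CPM. For 8 myeloid markers the sums were 27.6 to 40.6 and 22.6 to 94.4 CPM untreated and 46.3 to 79.4 and 81.6 to 175.6 CPM treated. For 8 endothelial markers they were 9.57 to 14.9 and 3.77 to 10.4 CPM untreated and 16.0 to 21.7 and 25.4 to 32.7 CPM treated, with CDH5 and KDR at 0. A sum does not stand for each of its markers, and within these sums markers went opposite ways. By the means of untreated cells, CD3D was lower in KO and CD3E higher, and GP6 was lower and GP1BA higher. HBG1 and HBG2 were lower in KO, while HBZ and TFRC were higher. Among the myeloid markers ITGAM was higher in KO, while CD68 and LYZ were lower. The part of the differences between sums in the members' values was not tested. None of these markers is among the 51 genes. KRT19, an epithelial marker, did meet the CPM limits and was set aside by symbol. Its mean was 95.1 CPM in untreated WT and 0 in untreated KO, so the epithelial sums hold values that the choice of genes used. In bulk RNA, fewer cells that express a gene and less RNA per cell cannot be told apart. Replicate 1 of treated WT stood apart for the 51 genes: it was the lowest of its group for 41 of them (80.4%), against 60.7% of all 10302 genes above 5 CPM in both WT groups. Ribosomal RNA was also highest there: RNA28SN5 took 5.63% of its counts, and 0.673% to 4.69% of those of the other libraries. The part of this in the members' values was not tested, and counts of genes called are given with and without the libraries numbered 1.

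Summed over the 51 genes, the level was 1089, 1174 and 1140 CPM in replicates 1, 2 and 3 of untreated WT and 628.6, 1120 and 1117 CPM in treated WT. In KO it was 0.49, 0.818 and 0.956 CPM untreated and 0.646, 1.53 and 0.923 CPM treated. The WT libraries held 151417 counts of these genes in all, and the 6 KO libraries held 139, of which 56 were in untreated and 83 in treated cells. The lowest count of any member in any WT library was 42 (EPB41L3 in replicate 1 of treated WT), and the highest in any KO library was 8.

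**Figure D1:**
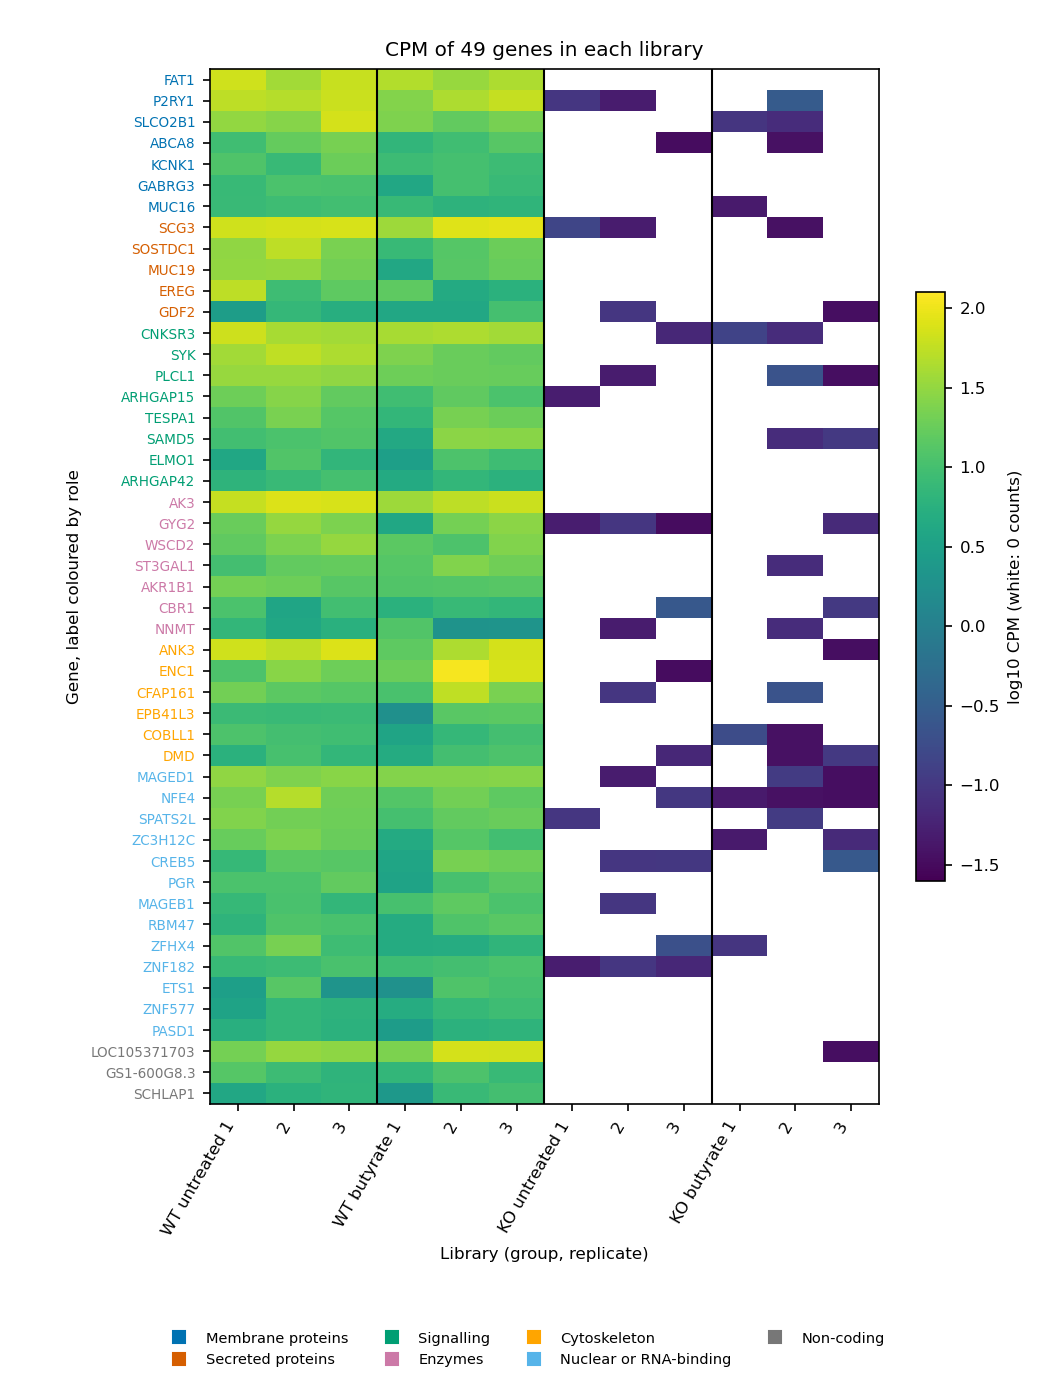
Level of 49 of the 51 genes (rows, grouped by role and ordered within a role by mean level in WT) in each of the 12 libraries (columns), as log10 CPM, with white for 0 counts. The 6 WT columns are filled throughout, and 233 of the 294 cells in the KO columns are white.

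Of the 51 genes, 22 had no count in any KO library. A count of 0 allows a level of up to 3 counts, or 0.0989 to 0.15 CPM depending on the library, for counting error only. A further 22 had at most 3 counts in each KO library, and 7 went over 3 counts in some library. CBR1, a carbonyl reductase, had 0, 0 and 8 counts in untreated KO and 0, 0 and 3 in treated KO. CREB5, a transcription factor, had 0, 2 and 3 counts and then 0, 0 and 8. P2RY1, a receptor for extracellular ADP, had 2, 1 and 0 counts untreated and 0, 8 and 0 treated. In each of these the KO counts sat mostly in 1 or 2 libraries, and no replicate number held them for all 3 genes. PLCL1 had 0, 1 and 0 counts untreated and 0, 6 and 1 treated, CFAP161 0, 2 and 0 and then 0, 6 and 0, ZFHX4 0, 0 and 6 and then 2, 0 and 0, and COBLL1 0, 0 and 0 and then 4, 1 and 0.

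The limits cut through a thin tail. Among the 10302 genes above 5 CPM in both WT groups, the higher of the KO group means was exactly 0 for 26, between 0 and 0.05 CPM for 18, from 0.05 to 0.1 CPM for 15 and from 0.1 to 0.2 CPM for 13. It was above 5 CPM for 9985 (96.9%). Just inside the WT limit stood PASD1, GDF2 and ZFHX4 with a lower WT group mean of 5.08, 5.12 and 5.42 CPM, and just outside stood CCDC68, RAB27B and EN1 with 4.93, 4.79 and 4.73 CPM. Just inside the KO limit were P2RY1 (0.0973 CPM), CREB5 (0.0912 CPM) and CBR1 (0.0879 CPM), and just outside were FYB1 and RNF182 (both 0.104 CPM) and ENPP3 (0.107 CPM).

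By biotype, 46 of the genes are protein coding, 4 are long non-coding RNAs (NFE4, LOC105371703, GS1-600G8.3 and SCHLAP1) and 1 is a pseudogene. They include genes known from neurons and endocrine cells (SCG3, GABRG3), skeletal muscle (DMD), immune cells (SYK, TESPA1, ELMO1), mucous epithelia (MUC16, MUC19) and the germline and tumours (MAGEB1, PASD1). Their median span in the genome was 97.0 kb, from 1.21 kb to 2220 kb for DMD, against a median of 29.3 kb for genes above 5 CPM in both WT groups. Chromosome X held 7 of the 51 (13.7%, against 3.28% of those WT-level genes): DMD, GS1-600G8.3, GYG2, MAGEB1, MAGED1, PASD1 and ZNF182. Chromosome 11 held 6 (11.8% against 5.87%), chromosome 1 held 1 (1.96% against 10.2%), and chromosomes 13, 14, 16 and 22 held none.

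Promoter sequence is a property that the choice of genes did not use. RefSeq promoters (GRCh38.p14, 250 bases before to 50 after a transcript start, the first listed start of each gene) were matched to 36 of the 51 genes. A window was counted as CpG-rich when at least 50% of its bases were G or C and its CpG count was at least 0.6 of that expected from its base composition. This held for 18 of the 36, against 84.3% of 8210 windows of genes above 5 CPM in both WT groups, 46.9% of all 27305 windows and 71.1% of the 38 matched genes seen in KO only. The members' promoters thus resembled the whole table more than the genes at their WT level, as a description without a test. The motif TATAAA, searched on both strands, was in 8 of the 36 windows (22.2%), against 4.86% of windows of WT-level genes and 12% of all windows. GATAAG, the letters that GATA factors read, was in 2 (5.56%), against 3.48% and 6.36%. GGGCGG was in 19 (52.8%), against 72.9% and 44.6%, and CACGTG in 3 (8.33%), against 10.7% and 7.43%. Members with a CpG-rich window and members without one were equally often at 0 in all KO libraries, 8 of 18 in both.

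The 250 bases before the start are shown for 4 genes with no count in any KO library, from 32 upstream CpG to 0, so that the range is visible. CpG dinucleotides are in capitals, and each runs 5′ to 3′ on the strand of its gene. FAT1, a large protocadherin of the cell surface, has 32 CpG upstream (chr4:186726697-186726946, minus strand). SYK, a tyrosine kinase of immune signalling, has 13 (chr9:90801350-90801599, plus strand). EREG, a growth factor of the EGF family, has 11 (chr4:74364895-74365144, plus strand), and its TATAAA begins 32 bases before the start. MUC19, a secreted mucin, has 0 (chr12:40393144-40393393, plus strand), and its TATAAA begins 30 bases before the start. Which start these cells used was not measured.
FAT1: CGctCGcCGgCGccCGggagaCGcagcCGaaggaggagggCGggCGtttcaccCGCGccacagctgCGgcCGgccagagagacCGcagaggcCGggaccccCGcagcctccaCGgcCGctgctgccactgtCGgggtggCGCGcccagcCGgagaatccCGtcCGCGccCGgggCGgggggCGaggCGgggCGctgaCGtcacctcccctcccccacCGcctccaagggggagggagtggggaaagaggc
SYK: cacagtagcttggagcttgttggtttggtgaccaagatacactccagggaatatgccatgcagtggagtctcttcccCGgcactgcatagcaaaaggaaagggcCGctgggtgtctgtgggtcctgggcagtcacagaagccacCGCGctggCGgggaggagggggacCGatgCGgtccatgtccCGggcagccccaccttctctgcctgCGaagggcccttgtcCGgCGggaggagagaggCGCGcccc
EREG: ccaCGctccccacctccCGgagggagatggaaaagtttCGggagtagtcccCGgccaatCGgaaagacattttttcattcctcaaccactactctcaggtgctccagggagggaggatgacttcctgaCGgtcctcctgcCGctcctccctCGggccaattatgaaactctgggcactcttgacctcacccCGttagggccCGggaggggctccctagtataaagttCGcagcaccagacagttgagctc
MUC19: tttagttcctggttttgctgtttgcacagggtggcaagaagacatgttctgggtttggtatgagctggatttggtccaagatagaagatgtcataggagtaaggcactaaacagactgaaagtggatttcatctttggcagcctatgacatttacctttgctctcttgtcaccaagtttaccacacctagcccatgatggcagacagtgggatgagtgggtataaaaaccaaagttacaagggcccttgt
Among these 4, FAT1 and MUC19 stand at the ends in CpG count, and both were read at 0 in each of the 6 KO libraries. Their mean WT levels were 49.2 and 20.1 CPM.

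Among the membrane proteins (8 genes), FAT1 was at 69.0, 39.0 and 61.7 CPM in untreated WT and 47.3, 34.1 and 44.0 CPM in treated WT, with 0 counts in KO. P2RY1 was at 53.1, 48.2 and 63.7 CPM untreated and 25.6, 43.9 and 58.8 CPM treated. The treated and untreated WT groups overlapped for both. Among the others were SLCO2B1, an organic anion transporter, ABCA8, a lipid transporter, KCNK1, a potassium channel, GABRG3, a GABA receptor subunit, and MUC16, a membrane mucin. The mean WT level of these 5 ran from 7.87 CPM (MUC16) to 32.5 CPM (SLCO2B1). SLCO2B1 was at 32.0, 27.1 and 72.4 CPM untreated and 24.6, 16.4 and 22.3 CPM treated, so that 1 untreated library stood far above the rest. KCNK1 (12, 7.74 and 18.4 CPM untreated, 8.75, 10.1 and 8.68 CPM treated) and GABRG3 had no count in KO.

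Among the secreted proteins (5 genes), SCG3, a secretogranin of secretory granules, was the highest of all 51 in CPM, with 69.1, 73.6 and 74.0 CPM in untreated WT and 35.8, 83.0 and 88.5 CPM in treated WT. Its KO counts were 3, 1 and 0 untreated and 0, 1 and 0 treated. EREG was at 53.3, 8.81 and 15.0 CPM untreated and 15.0, 4.64 and 5.83 CPM treated, so that replicate 1 was the highest in both WT groups. SOSTDC1, a secreted antagonist of BMP and Wnt signals, was at 30.1, 53.5 and 22.7 CPM untreated and 7.71, 13.5 and 18.6 CPM treated, with no overlap. MUC19 was at 32.1, 32.7 and 20.8 CPM untreated and 4.09, 13.6 and 17.3 CPM treated, also with no overlap. GDF2, a BMP ligand, was near the limit, with a mean of 5.61 CPM over WT.

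Among the signalling proteins (8 genes), CNKSR3, a scaffold protein, was at 65.3, 41.0 and 38.3 CPM untreated and 41.4, 43.9 and 38.0 CPM treated. SYK was at 38.3, 54.9 and 44.3 CPM untreated and 24.3, 18.1 and 16.0 CPM treated. PLCL1, a phospholipase C-like protein without catalytic activity, was at 34.2, 33.3 and 30.3 CPM untreated and 19.2, 17.9 and 17.1 CPM treated. For SYK and PLCL1 each treated WT library lay under each untreated one, while the CNKSR3 groups overlapped. The others, ARHGAP15 and ARHGAP42 (activators of GTP hydrolysis by small GTPases), TESPA1 (T-cell receptor signalling), ELMO1 (Rac activation) and SAMD5, had mean WT levels from 7.06 to 16.4 CPM. SAMD5 was at 9.67, 11.3 and 12.4 CPM untreated and 4.27, 28.4 and 28.0 CPM treated, so that replicate 1 and the other treated libraries lay on opposite sides of the untreated group.

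Among the enzymes (7 genes), AK3, the adenylate kinase of the mitochondrial matrix, was at 60.3, 81.5 and 75.2 CPM untreated and 36.7, 53.1 and 64.6 CPM treated, with 0 counts in KO. WSCD2, a sulfotransferase-family protein of the Golgi, and AKR1B1, aldose reductase, were also at 0 in all KO libraries, with mean WT levels of 20.4 and 15.4 CPM. GYG2, a glycogenin that primes glycogen synthesis, averaged 21.3 CPM in WT, and ST3GAL1, a sialyltransferase, 16.8 CPM. CBR1 and NNMT, which methylates nicotinamide, were the lowest at 7.49 and 5.52 CPM. CBR1 was at 11.1, 3.8 and 9.47 CPM untreated and 5.7, 7.87 and 6.97 CPM treated. NNMT was at 6.96, 3.99 and 5.61 CPM untreated and 12.5, 2.0 and 2.09 CPM treated, and its coefficient of variation in treated WT, 109.1%, was the highest of the 51. In NNMT replicate 1 was the highest treated library, the opposite of its place for most members. GYG2 was at 18.1, 33.0 and 23.2 CPM untreated and 3.96, 21.3 and 28.4 CPM treated.

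Among the cytoskeletal and scaffold proteins (6 genes), ANK3, an ankyrin that ties membrane proteins to the spectrin skeleton, was at 67.3, 53.4 and 80.0 CPM untreated and 15.0, 44.1 and 73.3 CPM treated. ENC1, an actin-associated kelch protein, was at 11.8, 27.8 and 19.5 CPM untreated and 18.8, 113.0 and 74.9 CPM treated. In ANK3 the low treated value belonged to replicate 1, and in ENC1 replicates 2 and 3 of treated WT stood above all untreated libraries while replicate 1 did not. EPB41L3, a relative of erythrocyte protein 4.1, was at 8.42, 8.11 and 8.36 CPM untreated and 1.83, 14 and 14.8 CPM treated, so that the group with the closest replicates of any member in untreated WT was widely spread under treatment. CFAP161, a ciliary protein, was at 20.5, 14.8 and 13.4 CPM untreated and 11, 56.5 and 22.6 CPM treated, with replicate 2 of treated WT far above the rest. COBLL1 was at 11.5, 10.0 and 9.09 CPM untreated and 3.66, 7.23 and 9.99 CPM treated. DMD, dystrophin, had a mean WT level of 8.28 CPM.

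The group of nuclear and RNA-binding proteins and cancer-testis antigens (13 genes) was lower, at 5.6 to 26.8 CPM. It holds the transcription factors ETS1, CREB5, ZFHX4, PGR (the progesterone receptor), ZNF182 and ZNF577, and NFE4, a gene named for an erythroid factor acting on the fetal globin genes. It also holds RBM47, which binds RNA, ZC3H12C, an RNase, and SPATS2L, MAGED1, MAGEB1 and PASD1. NFE4 was at 22.0, 49.3 and 19.8 CPM untreated and 12.9, 20.2 and 15.2 CPM treated, with 6 counts in all of KO. NFE4, a long non-coding RNA by its biotype, overlaps FBXL13, and their reads cannot be told apart without strand. FBXL13 was also lower in KO, with a log2 change of -5.7 untreated and -4.79 treated. ETS1 was uneven in untreated WT, at 3.06, 13.8 and 2.05 CPM, and was at 1.87, 12.1 and 10.2 CPM in treated WT, so that its coefficient of variation in untreated WT, 103.2%, was the highest of the 51. ZC3H12C was at 17.4, 23.1 and 17.7 CPM untreated and 4.53, 13.2 and 9.61 CPM treated, with no overlap. ZFHX4 was at 12.5, 22.1 and 8.95 CPM untreated and 4.79, 4.87 and 6.59 CPM treated, also with no overlap. CREB5 was at 7.46, 14.8 and 13.6 CPM untreated and 3.74, 21.7 and 19.2 CPM treated. In CREB5 replicate 1 was the lowest of both groups. PGR was at 11.1, 11.1 and 16.2 CPM untreated and 3.57, 10.4 and 14.1 CPM treated, with no count in KO. MAGED1 was the most even in treated WT, at 25.8, 26.0 and 26.7 CPM. Among the non-coding genes LOC105371703 stood highest, at 21.4, 32.3 and 29.3 CPM untreated and 23.7, 71.6 and 70.2 CPM treated, with 1 count in all of KO.

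Per kb of exon the order of levels changed. SCG3 stood at 21.3 CPM per kb, NFE4 at 14.1, AK3 at 13.8 and CFAP161 at 11.7 CPM per kb. ANK3 came to 2.17 CPM per kb and MUC16, the lowest, to 0.18 CPM per kb. The mean CPM over WT and this length-scaled level thus gave a different order for the long genes.

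Butyrate in WT cells is a contrast that the choice of genes did not use, apart from the lower limit on both WT groups. By edgeR's quasi-likelihood test, adjusted by Benjamini-Hochberg over 15805 genes, 0 of the 51 members passed 0.05, against 2.35 percent of all genes tested (1.80 percent higher and 0.550 percent lower) and 1.92 percent of genes above 5 CPM in both WT groups. At an unadjusted p under 0.05 there were 9 (2 higher, 7 lower), against 18.0 percent of all genes, and DESeq2 called 3 at an adjusted p under 0.05, against 7.76 percent of the genes it adjusted. By edgeR the members were called about as often as genes at large. The median log2 change of the members was -0.32, with 34 lower (66.7%) and 17 higher. The median was 0.02 over all genes tested (47.5% lower) and -0.07 over genes above 5 CPM in both WT groups (56.9% lower). Without the libraries numbered 1 the members' median was -0.22, with 30 lower (58.8%), against -0.12 and 59.7% lower for the genes above 5 CPM in both WT groups. For 10 members the CPM of the treated and untreated WT libraries did not overlap, against 20.9 percent of all genes, and in all 10 the treated libraries were the lower. These were SYK, SOSTDC1, MUC19, ZC3H12C, SLCO2B1, ZFHX4, ARHGAP15, PLCL1, SPATS2L and MUC16. Among all genes, 11.4 percent did not overlap with treated lower and 9.52 percent with treated higher.

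**Figure D2:**
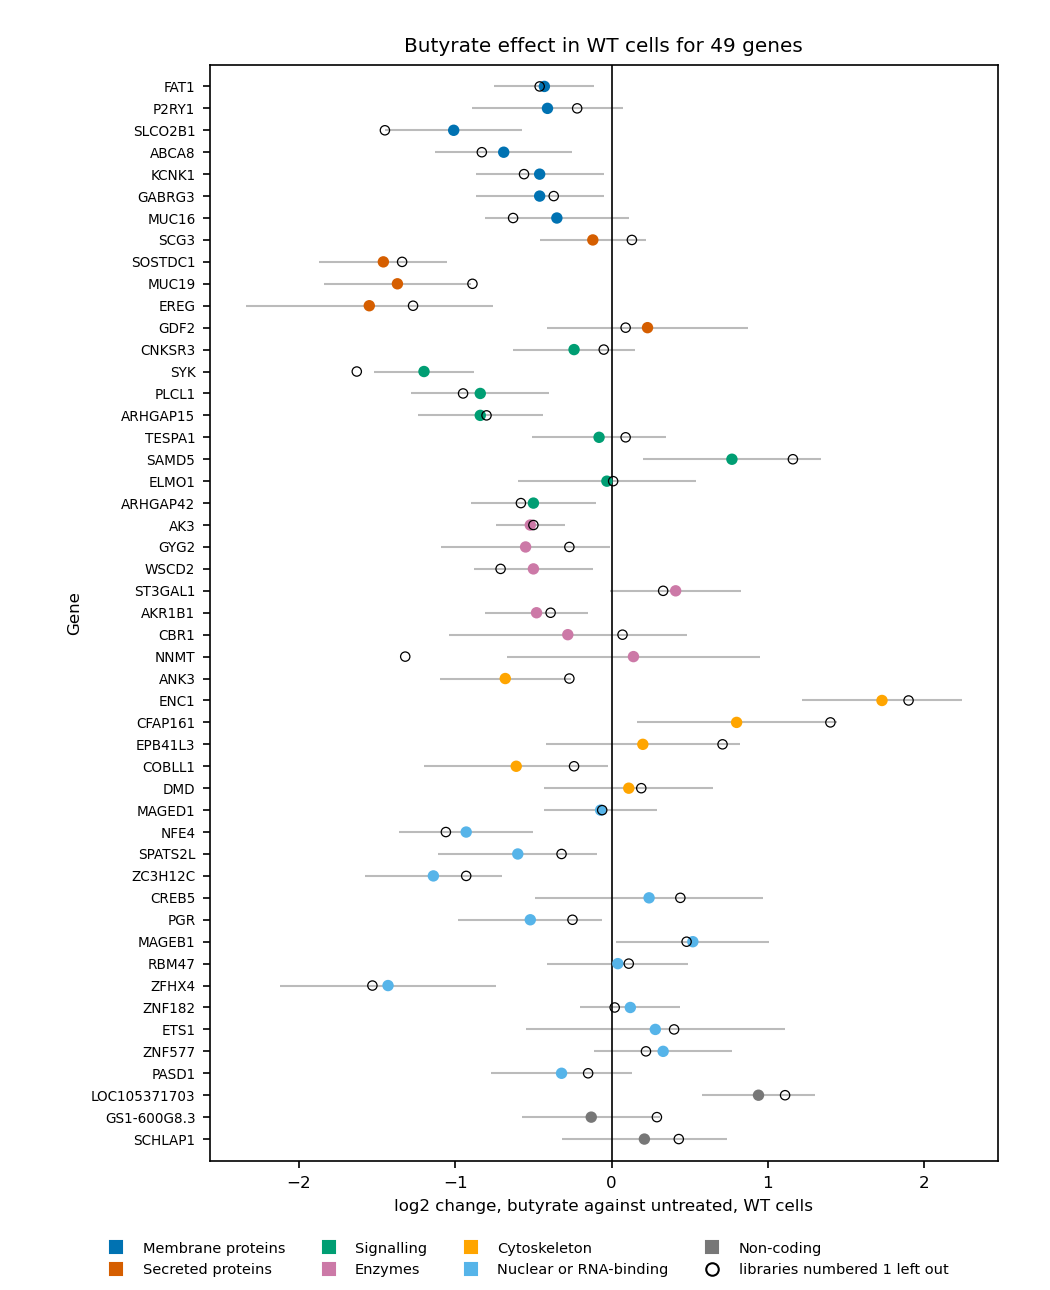
Log2 change under butyrate in WT cells for 49 of the 51 genes, coloured by role, with bars of 1 SE, and the same change without the libraries numbered 1 as open circles. All 7 membrane proteins shown lie left of 0, ENC1 lies farthest right at 1.73, and NNMT is the gene that moves most when the libraries numbered 1 are left out.

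Some members were called under other analyses. SYK had a log2 change of -1.20 (SE 0.32, adjusted p = 0.103 by edgeR), with adjusted p = 0.0381 when the replicate number was a block, 0.00867 without the libraries numbered 1 and 0.0185 by DESeq2. ENC1 had 1.73 (SE 0.51, adjusted p = 0.109 by edgeR), with 0.0105, 0.00607 and 0.0246 in the same order. SYK and ENC1 thus went opposite ways and both passed in these 3 analyses. SOSTDC1 had -1.46 (SE 0.41, adjusted p = 0.11 by edgeR) and passed by DESeq2 (0.0166), not with the block (0.0552). EREG had -1.55 (SE 0.79, adjusted p = 0.351 by edgeR) and passed with the block alone (log2 change -1.38, adjusted p = 0.0285). Without the libraries numbered 1, LOC105371703 (0.94, SE 0.36 with all libraries) and SAMD5 (0.77, SE 0.57) passed with adjusted p = 0.0192 and 0.0296 by edgeR. With replicate 1 of treated WT alone left out, adjusted p was 0.0276 for LOC105371703 and 0.0831 for SAMD5 by edgeR. Each of these genes was singled out after its values were seen. With the block 3 members passed, against 8.61 percent of all genes, and without the libraries numbered 1 there were 4, against 11.4 percent.

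By role, the median log2 change under butyrate in WT was -1.37 for the secreted proteins (4 of 5 lower), -0.48 for the enzymes (5 of 7 lower), -0.44 for the membrane proteins (8 of 8 lower) and -0.37 for the signalling proteins (7 of 8 lower). It was -0.07 for the nuclear and RNA-binding group (7 of 13 lower), 0.16 for the cytoskeletal group (2 of 6 lower) and 0.18 for the non-coding genes (1 of 4 lower). Without the libraries numbered 1 the medians were -0.89, -0.39, -0.51, -0.32, -0.06, 0.45 and 0.36 in the same order of groups. The signs are descriptions, since no member passed the main edgeR test, which used all libraries and no block. In the levels, SCG3 with -0.12 (SE 0.34) differed by less than its error, whereas AK3 with -0.52 (SE 0.22) had an adjusted p of 0.266 by edgeR.

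Genes next to the members were not chosen by the rule, and their difference between KO and WT was tested. For each member the nearest tested gene on each side that is not itself a member was taken, which gave 100 distinct genes at a median distance of 176.7 kb. In untreated cells 35 of the 100 passed (27 lower and 8 higher in KO), against 22.6 percent of all genes, and 10.9 percent for lower alone. In butyrate-treated cells 38 passed (28 lower, 10 higher), against 19.0 percent, and 8.89 percent for lower alone. Both treatments called 32 of them in 1 direction (24 lower, 8 higher), against 15.0 percent of all genes. Of the 24 lower, 9 had 3 counts or fewer in every KO library, so that they passed the filter through their WT libraries. LYSMD2, IL16 and MAGEB2, with at most 5, 13 and 13 counts in any KO library, also passed it through WT. Neighbours lower in KO thus made up a larger share than among genes at large, by edgeR's test for each gene and with no test of the shares. The share among other genes of the same chromosomes was not taken, so a shift of a whole region was not tested. Within 500 kb of NFE4, ARMC10 had a log2 change of -1.3, POLR2J -1.11 and PSMC2 -0.89 untreated, while DPY19L2P2 had 2.9 and RELN 3.46. Without the libraries numbered 1, 38 passed untreated (30 lower) and 46 treated (31 lower), against 26.2 and 24.7 percent of all genes, and 13.3 and 11.8 percent for lower alone. Among the 60 neighbours above 5 CPM over all libraries, 20 passed untreated (15 lower), against 23.4 percent of such genes and 10.9 percent for lower, and 25 passed treated (18 lower), against 19.8 and 9.57 percent. LYSMD2, IL16 and MAGEB2 are among these 60, so that this limit does not remove genes that passed the filter through WT. Of the 100, 3 overlap their member (ATXN3L and FPR3 among them), where reads cannot be told apart without strand.

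**Figure D3:**
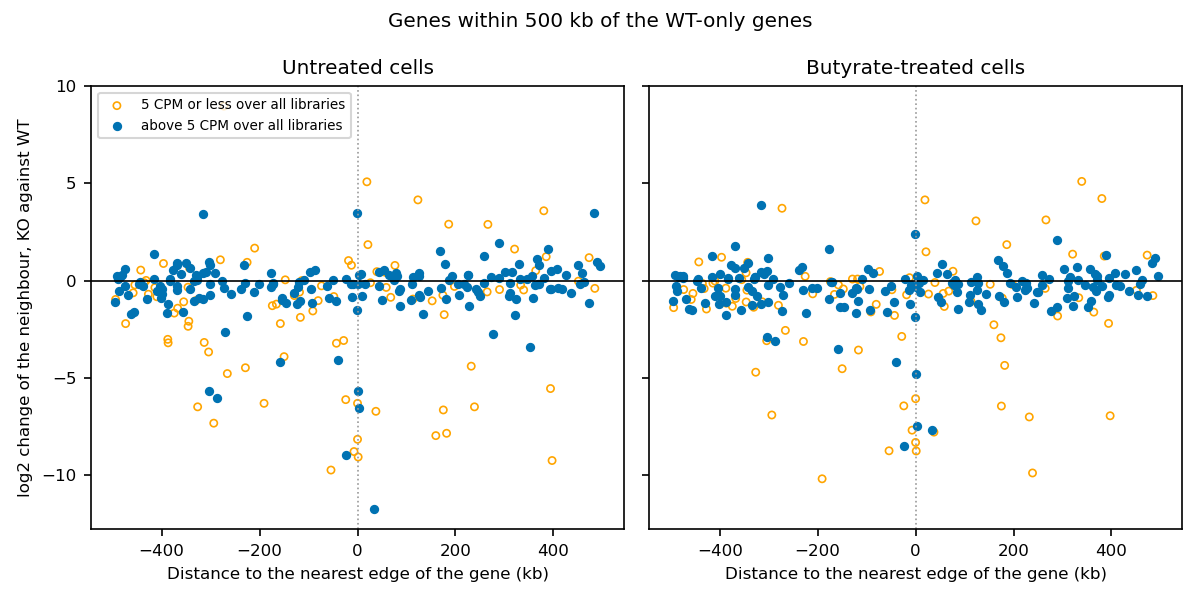
Log2 change between KO and WT of tested genes within 500 kb of a member, against their distance from its nearest edge (negative before the member), for untreated (left) and treated (right) cells, with filled points above 5 CPM over all libraries. Points under -5 lie on both sides of the members, and in untreated cells the median was -0.8 within 50 kb, -0.54 from 50 to 200 kb and -0.22 from 200 to 500 kb.

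By distance, in untreated cells 13 of 35 genes within 50 kb of a member passed (11 lower), or 37.1%. From 50 to 200 kb 21 of 72 passed (18 lower), or 29.2%, and from 200 to 500 kb 50 of 162 (35 lower), or 30.9%. Over all genes tested 22.6 percent passed. The share lower was 31.4%, 25.0% and 21.6% in order of distance, against 10.9 percent of all genes, so it was above that share out to 500 kb. The median log2 change was -0.8, -0.54 and -0.22 in the same order, against 0.02 over all genes tested, as a description without a test of the trend. The neighbours were uneven: 27 members had no neighbour called in both treatments, 10 had 1 that was lower, and 7 had both neighbours lower (AK3, CFAP161, GS1-600G8.3, MAGEB1, PASD1, SAMD5 and SOSTDC1). At AK3, CDC37L1, 1.16 kb away, was at 11.6, 11.5 and 14.1 CPM in untreated WT and 3.14, 4.23 and 5.37 CPM in untreated KO (log2 change -1.52, SE 0.28, adjusted p = 0.0017 by edgeR). RCL1 on the other side fell from 48.6, 52.6 and 53.4 CPM to 22.9, 28.0 and 26.2 CPM (-0.98, SE 0.25, adjusted p = 0.0145 by edgeR, and 0.0535 without replicate 1 of untreated KO). Both neighbours of AK3 were still detected in KO, where AK3 had 0 counts. At CFAP161, IL16, 33.5 kb away, was at 15.1, 16.0 and 20.2 CPM in untreated WT and at 0 in untreated KO, at least 131.5-fold lower against 3 counts per library. At MAGEB1, MAGEB2, 23.6 kb away, was at 39.0, 49.9 and 44.9 CPM in untreated WT and 0.147, 0 and 0.0989 CPM in untreated KO (log2 change -8.95, SE 0.64, adjusted p = 1.93e-06 by edgeR). MAGEB1 and MAGEB2 are related in sequence, and the counting could split reads between them. MAGEB2 failed to be a member only through treated KO, at a mean of 0.23 CPM.

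SCG3 lies in a run of genes on chromosome 15 that were all near 0 in KO: LYSMD2, 1.98 kb from SCG3, was at 15.0, 9.92 and 10.0 CPM in untreated WT and 0.245, 0.144 and 0 CPM in untreated KO (log2 change -6.54, SE 0.84, adjusted p = 0.000141 by edgeR), and TMOD2, which met the limits and was set aside by symbol, lies on its far side, 30.6 kb from SCG3. TMOD2 averaged 13.3 CPM in untreated WT and 60.7 CPM in treated WT, and had 0 counts in KO. GS1-600G8.3 on chromosome X forms a similar run with ATXN3L, which overlaps it, and LINC01203, 15.3 kb away. ZNF649, a zinc finger gene 1.28 kb from ZNF577, averaged 2.68 CPM in untreated WT and 0 in untreated KO, at least 20.6-fold lower. OR2AT4 near SLCO2B1 (at least 33.1-fold lower) and SCN2A near COBLL1 (at least 23.4-fold lower) were of the same kind. No member adjoined another member in the order of RefSeq genes, and the closest pair, ARHGAP42 and PGR, lay 35.7 kb apart.

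Some members had neighbours that did not pass in untreated cells. CCDC6 and CDK1, on either side of ANK3, had -0.06 (SE 0.19) and -0.26 (SE 0.16), though CDK1 passed in treated cells (-0.85, adjusted p = 0.0028 by edgeR). The opposite direction also occurred: GCA, on the side of COBLL1 that SCN2A is not on, was at 0 in all 3 untreated WT libraries and at 27.1, 28.2 and 38.3 CPM in untreated KO. It lies 2283 kb from COBLL1, so that the nearest tested gene is not always close. ABCA9, 19.1 kb from ABCA8, rose from 0.209 to 7.5 CPM (mean of 3 in each group, log2 change 5.08, SE 1.11, adjusted p = 0.00552 by edgeR), so that adjoining ABCA genes went opposite ways.

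Relatives of the members in the same protein families were looked at next, from a list of 77 genes in 29 families written when the members were known, of which 52 were tested. In untreated cells 21 of the 52 passed between KO and WT (15 higher and 6 lower in KO), against 22.6 percent of all genes and 11.7 percent for higher. Some relatives passed the filter through 1 genotype only. CHGB, ST3GAL6 and PLCL2, at most 0.136, 0.15 and 0.488 CPM in any WT library, passed it through KO. BMP10, at 0 in KO, passed it through WT. Relatives too low in every group were not tested, and the shares were not tested either. In treated cells 17 passed (15 higher, 2 lower), against 19.0 and 10.1 percent, and both treatments called 12 as higher and 2 as lower. Without the libraries numbered 1 the counts were 21 untreated (15 higher) and 19 treated (15 higher), against 26.2 and 24.7 percent of all genes. PLCL2, the paralog of PLCL1, was at 0, 0.417 and 0.488 CPM in untreated WT and 53.0, 46.7 and 41.4 CPM in untreated KO (log2 change 7.25, SE 0.63, adjusted p = 8.18e-06 by edgeR). PLCL1 and PLCL2 were thus seen in opposite lines, at mean levels of 32.6 and 0.302 CPM in untreated WT and 0.016 and 47.0 CPM in untreated KO.

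ZAP70, the paralog of SYK in T cells, was at 0.2, 0.139 and 0.279 CPM in untreated WT and 1.57, 4.14 and 17.5 CPM in untreated KO (log2 change 5.19, SE 0.93, adjusted p = 0.00163 by edgeR), with all 3 KO libraries above all WT ones but spread over a wide range. ST3GAL6, a relative of ST3GAL1, rose from 0.081 to 2.52 CPM (4.97, SE 0.93, adjusted p = 0.00212 by edgeR), and CHGB, a granin like SCG3, from 0.0154 to 0.853 CPM (5.47, SE 1.11, adjusted p = 0.00359 by edgeR). AK4, another mitochondrial adenylate kinase, rose from 25.5 to 69.7 CPM (1.49, SE 0.24, adjusted p = 0.000706 by edgeR), and ZFHX3 from 8.55 to 40.2 CPM (2.25, SE 0.47, adjusted p = 0.00418 by edgeR). ETS2 (-1.19, SE 0.23, adjusted p = 0.00255 by edgeR) and NR3C1, the glucocorticoid receptor related to PGR (-1.86, SE 0.33, adjusted p = 0.00162 by edgeR), fell. UTRN, the relative of DMD, had -0.28, ELMO2 had 0.14, ANK1 had -0.61 and CBR4 had -0.02, none of which passed. BMP10, a close relative of GDF2, was at a mean of 3.04 CPM in untreated WT and 0 in KO. The genes named in this paragraph and the one before were picked from the list after their values were seen.

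**Figure D4:**
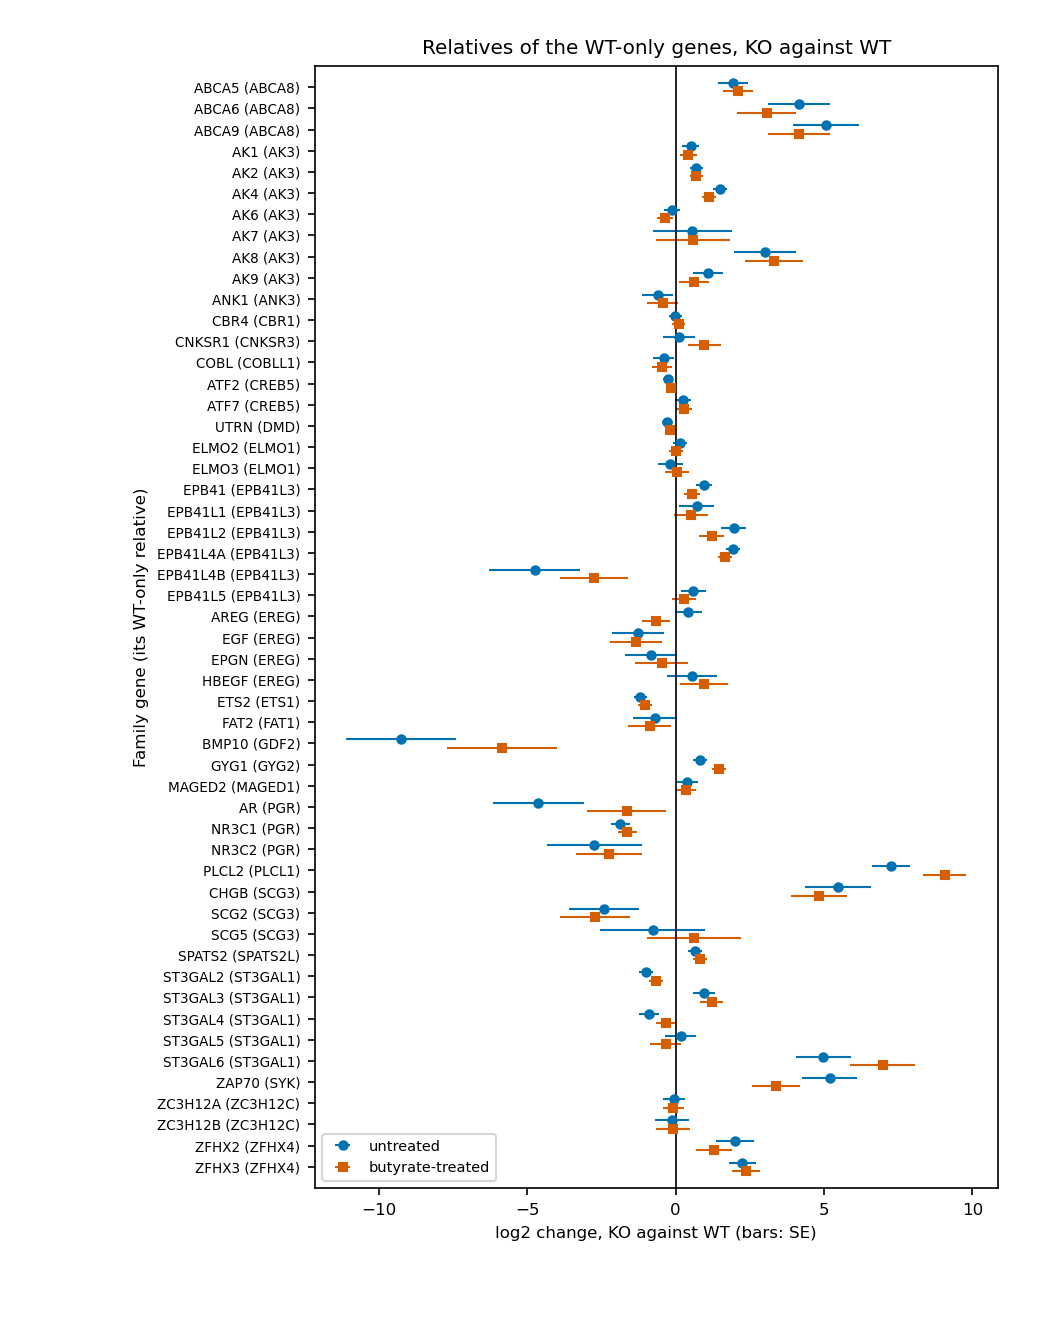
Log2 change between KO and WT, with bars of 1 SE, for the 52 tested relatives of the members, in untreated (circles) and treated (squares) cells, each labelled with the member it belongs to. PLCL2 lies farthest right in both, at 7.25 untreated, and BMP10 farthest left, where the KO libraries are at 0 and the fitted value depends on the prior count.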

How the data were processed

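The authors deposited whole-number counts per gene symbol for 12 RNA-seq libraries of K562 cells in 1 table. Reads were handled with FastQC 0.12.1 and STAR 2.7.11b on hg38, per the submitters' processing notes. The counting tool, the annotation and the use of strand are not given in the sources used here, so overlapping and near-identical genes can carry each other's reads. Counts were read through the library names in the labels, with 0 columns unused and 0 lines naming no gene. The 51 genes, their roles, the family list and the tests were chosen with earlier results of these data known.

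CPM used the column sums. The untransformed counts were fitted with edgeR 4.0.16 (R 4.3.3): filterByExpr with its minimum count of 10 left 15805 genes, libraries were scaled by TMM, and a quasi-likelihood model with a mean for each of the 4 groups shared 1 spread (biological coefficient of variation 0.384). The Benjamini-Hochberg adjustment ran over all genes tested, and an adjusted p under 0.05 was called. An SE is the log2 change divided by the square root of F. DESeq2 1.42.0 served as an alternative. All 51 members passed the filter through their WT libraries. On simulated data for butyrate in WT (15474 genes) the test recovered 28% of 2-fold and 96% of 8-fold changes. For KO against WT it recovered 23% and 98% untreated (15422 genes), and 29% and 100% treated (15441 genes). The share of its calls that were false was 4.6%, 9.0% and 1.5% in the same order, the untreated KO contrast being above the 5% that the threshold sets. In each simulation 100 genes were changed at each fold, all of them well counted. Simulated libraries varied independently and carried no deviation shared by replicate number, unlike the real ones, so these rates may not hold for the real libraries.

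Libraries of the same replicate number deviated together from their group means. The correlation over genes was 0.195 to 0.409 between the WT groups, 0.21 to 0.361 between the untreated groups and 0.315 to 0.595 between the treated groups, all over 0.1, so the numbers were taken to pair the libraries. The highest between different numbers was 0.186, 0.0692 and 0.343, in the same order. For the WT groups and the treated groups it was also over 0.1, and for the treated groups it was above the lowest same-number value. The cut at 0.1 thus did not separate same from different numbers, and the fit without the block was kept as the main one. Blocked values stand beside the results for members under butyrate whose call they change, and blocked counts of neighbours are given at the end. Blocked counts of relatives are not given, though the block changed some of their calls. No 2 replicates were the same library: their counts differed with a chi-square per degree of freedom of at least 37.2.

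Some results for single genes, 2 members among them, are not reported here, though counts and medians include them. Members with values in each library are otherwise the 10 highest in mean WT CPM, those past the test and those over 3 counts in a KO library. Others, and all relatives and neighbours beyond the 6 largest changes called in both treatments, were picked after their values were seen. Gene positions come from RefSeq (GRCh38.p14), and exon lengths, found for 50 members, from the annotation supplied with the reference. Alternatives are another tool, scaling, filters, limits, the replicate block and leaving out libraries.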

Additional observations from a re-analysis of the deposited data

How the results depend on the processing

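The number of genes meeting the rule was 90 with a WT limit of 2 CPM, 26 with 10 CPM and 21 when every library had to pass, and 48 to 55 when single libraries were left out. Members called for butyrate in WT were 0, with 3 by DESeq2, 3 with the replicate block (the pairing), 4 without the libraries numbered 1 (added after seeing the data) and 0 to 3 when single libraries were left out, where the 3 came without replicate 1 of treated WT. All genes called in that contrast were 372, with 1280 by DESeq2, 1361 with the block, 63 in a fit of the 6 WT libraries, 1884 without the libraries numbered 1 and 43 to 1243 without single libraries (43 without replicate 2 of untreated WT, 1243 without replicate 1 of treated WT). The members' median log2 change under butyrate stayed below 0 in the alternatives run, from -0.36 to -0.23 without single libraries and -0.39 with the block. Neighbours called between KO and WT were 35 untreated and 38 treated, with 63 and 65 of 199 when 2 genes were taken on each side. Among the 60 above 5 CPM there were 20 and 25 (added after seeing the data). Neighbours called were 47 and 47 with the block, and 27 to 33 and 30 to 42 without single libraries. For the block and the single libraries, the share of all genes called between KO and WT is not given here. Those counts therefore cannot be set against genes at large. KO levels below 3 counts a library are not resolved at this depth.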
